A study of Homo sapiens with 7 samples.

Results

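The 10 genes described here code for RNA-binding proteins known from stem cells, the embryonic brain and tumours and were followed in Daoy cells, an established human medulloblastoma line. They are the Musashi genes MSI1 and MSI2, the let-7 regulators LIN28A and LIN28B, the insulin-like growth factor 2 mRNA-binding proteins IGF2BP1, IGF2BP2 and IGF2BP3, and the Hu proteins ELAVL1, ELAVL3 and ELAVL4. The members were taken by symbol: a row of the deposited table belonged to a member when its RefSeq transcript maps to that gene. All 10 genes were found, in 11 of 24000 rows, MSI2 with 2 rows and every other member with 1, among 17217 named genes. The cells were wild type by their label, grown in serum-containing medium with no treatment, and were profiled on single-colour Cy3 microarrays, 3 arrays of biological replicate 1 and 4 of biological replicate 2. Per the design text, each biological replicate had a 4-plex array of its own, so culture and slide cannot be told apart. The labels do not say whether the arrays of a replicate came from separate extracts, so a p-value between the replicates measures only the spread between arrays, which may be technical.

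Musashi proteins bind UAG-containing sites in mRNAs and regulate their translation, and are classic markers of neural stem and progenitor cells. LIN28 proteins bind let-7 precursors through a cold shock domain and zinc knuckles and block their maturation, so that let-7 target mRNAs escape repression. IGF2BP proteins coat client mRNAs in the cytoplasm and protect them from decay, and Hu proteins bind AU-rich elements. ELAVL1 is made in nearly all cells, and ELAVL3 and ELAVL4 are known as neuronal proteins.

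The let-7 family is shown because 2 members act on it and 1 of the gene lists below is defined by it. No microRNA was measured. In RefSeq (GRCh38.p14) all 9 mature 5p sequences of the family share 1 seed, bases 2 to 8, set in capitals in these 3.
let-7a-5p: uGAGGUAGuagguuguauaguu
let-7g-5p: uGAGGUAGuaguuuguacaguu
miR-98-5p: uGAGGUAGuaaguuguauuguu
The zinc knuckles of LIN28 are known to bind GGAG in the precursor loop. These letters followed the 5p arm in 9 of 12 hairpins and were missing there in 3. The let-7a-1 and let-7a-3 hairpins, which give the same mature microRNA, show both cases, with GGAG in capitals.
let-7a-1: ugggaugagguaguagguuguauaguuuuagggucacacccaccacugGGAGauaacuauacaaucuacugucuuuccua
let-7a-3: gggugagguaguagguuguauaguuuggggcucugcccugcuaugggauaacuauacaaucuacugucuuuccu

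Promoter sequence is shown for MSI2, whose rows moved in opposite directions, for LIN28B, which was lower in replicate 2, and for IGF2BP3, whose window holds CACGTG more than once. The RefSeq promoter table (GRCh38.p14) matched 5 of the 10 members with 14 annotated starts, 2 each for MSI2, LIN28B and IGF2BP2, 1 for IGF2BP3 and 7 for ELAVL4. The 250 bases before each start were searched on both strands for CACGTG, the E-box that MYC and MAX bind, and for GGGCGG, the GC box of SP1, and no CACGTG overlapped a GGGCGG in these windows. Capitals mark these motifs, written as CCGCCC where GGGCGG lies on the other strand.
MSI2, first start, chr17:57255601-57255850 (+ strand): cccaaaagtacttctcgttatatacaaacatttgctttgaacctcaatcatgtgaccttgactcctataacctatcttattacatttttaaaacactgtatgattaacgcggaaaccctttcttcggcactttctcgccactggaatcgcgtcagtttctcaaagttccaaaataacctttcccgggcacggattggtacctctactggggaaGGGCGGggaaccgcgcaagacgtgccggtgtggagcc
MSI2, second start, chr17:57256769-57257018 (+ strand): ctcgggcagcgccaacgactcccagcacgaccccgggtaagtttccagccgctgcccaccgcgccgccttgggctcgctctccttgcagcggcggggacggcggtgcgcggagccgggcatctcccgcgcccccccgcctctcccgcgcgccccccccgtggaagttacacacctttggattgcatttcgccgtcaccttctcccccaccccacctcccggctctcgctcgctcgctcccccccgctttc
LIN28B, first start, chr6:104940715-104940964 (+ strand): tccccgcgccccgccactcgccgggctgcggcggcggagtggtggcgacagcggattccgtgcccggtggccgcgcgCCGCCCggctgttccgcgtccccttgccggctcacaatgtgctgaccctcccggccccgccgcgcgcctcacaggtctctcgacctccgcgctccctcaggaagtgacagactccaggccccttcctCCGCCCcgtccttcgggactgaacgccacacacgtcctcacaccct
LIN28B, second start, chr6:104956857-104957106 (+ strand): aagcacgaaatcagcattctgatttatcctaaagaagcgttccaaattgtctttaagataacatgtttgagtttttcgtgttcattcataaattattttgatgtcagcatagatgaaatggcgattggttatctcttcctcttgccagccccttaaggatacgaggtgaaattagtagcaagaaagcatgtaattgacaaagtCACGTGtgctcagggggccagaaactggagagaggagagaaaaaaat
IGF2BP3, chr7:23470492-23470741 (- strand): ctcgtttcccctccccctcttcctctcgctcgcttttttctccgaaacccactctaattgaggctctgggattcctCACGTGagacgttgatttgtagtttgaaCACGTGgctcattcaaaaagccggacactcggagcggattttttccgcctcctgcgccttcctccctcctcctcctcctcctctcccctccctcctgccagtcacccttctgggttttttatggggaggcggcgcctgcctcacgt
The MSI2 starts lie 1168 bases apart and the LIN28B starts 16142. The table does not say which start belongs to which arrayed transcript. CACGTG occurred 174 and 146 bases before the IGF2BP3 start and 47 bases before the second LIN28B start, in 2 of the 14 windows, against 6.34% of all 35116 windows. GGGCGG occurred in 3 of the 14 windows, those of the first MSI2, LIN28B and IGF2BP2 starts, against 42.6% of all windows. The IGF2BP2 window, which is not shown, held it 7 times and the LIN28B window 2 times. A match is a description of the sequence, not a binding site.

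The deposited values are log2 intensities that had been quantile normalized, with a median of 8.15 on every array. No detection call was used here. Background was therefore taken as the 95th percentile of 364 olfactory receptor genes, read as not expressed, which was 7.54 over both replicates, 7.79 in replicate 1 and 7.24 in replicate 2. The olfactory receptor genes had a median of 5.81 in replicate 1 and 5.78 in replicate 2, with 63 of them called lower in replicate 2 and 28 higher. Intensity depends on the probes of a row, so a level served only to set a gene against background and to choose the genes named in each list, and does not show which of several genes was more abundant. Of the fixed marker lists, 7 of 10 neural progenitor, 6 of 11 neuronal and 7 of 8 mesenchymal genes were above background, and 1 of 9 leukocyte genes, CD68. Over all named genes the share was 60.6%, so the progenitor and neuronal counts were near it. The progenitor genes NES, PAX6 and FABP7 were below background.

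Of the 10 members, 7 were above background, both Musashi genes, LIN28B, the 3 IGF2BP genes and ELAVL1. This was 70% of the members, against 60.6% of all named genes. The same 7 genes lay above the background of each replicate taken alone, and ELAVL4 did so in replicate 1 only, where 57.4% of all named genes were above background in replicate 1 and 64.0% in replicate 2. Between the replicates, 7 of 10 members passed limma's test at an adjusted p of 0.05, where 49.8% of all named genes did. The count went to 4 when array 2 of replicate 1 or array 2, 3 or 4 of replicate 2 was left out, and to 5 or 6 without any other array. LIN28A, LIN28B, IGF2BP1, IGF2BP2, ELAVL1 and ELAVL4 were lower in replicate 2 (24.2% of all named genes were called lower) and ELAVL3 was higher (25.5% of all were called higher), a single call that ended without any 1 array. The median difference of the 10 members was -0.40 on the log2 scale, against -0.01 over all named genes. For 6 members the 3 arrays of replicate 1 lay wholly on one side of the 4 of replicate 2, as they did for 52.4% of all named genes: 5 members lay lower in replicate 2 (25.7% of all) and 1 higher (26.6% of all). Calls were thus common over the whole table.

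**Figure D1:**
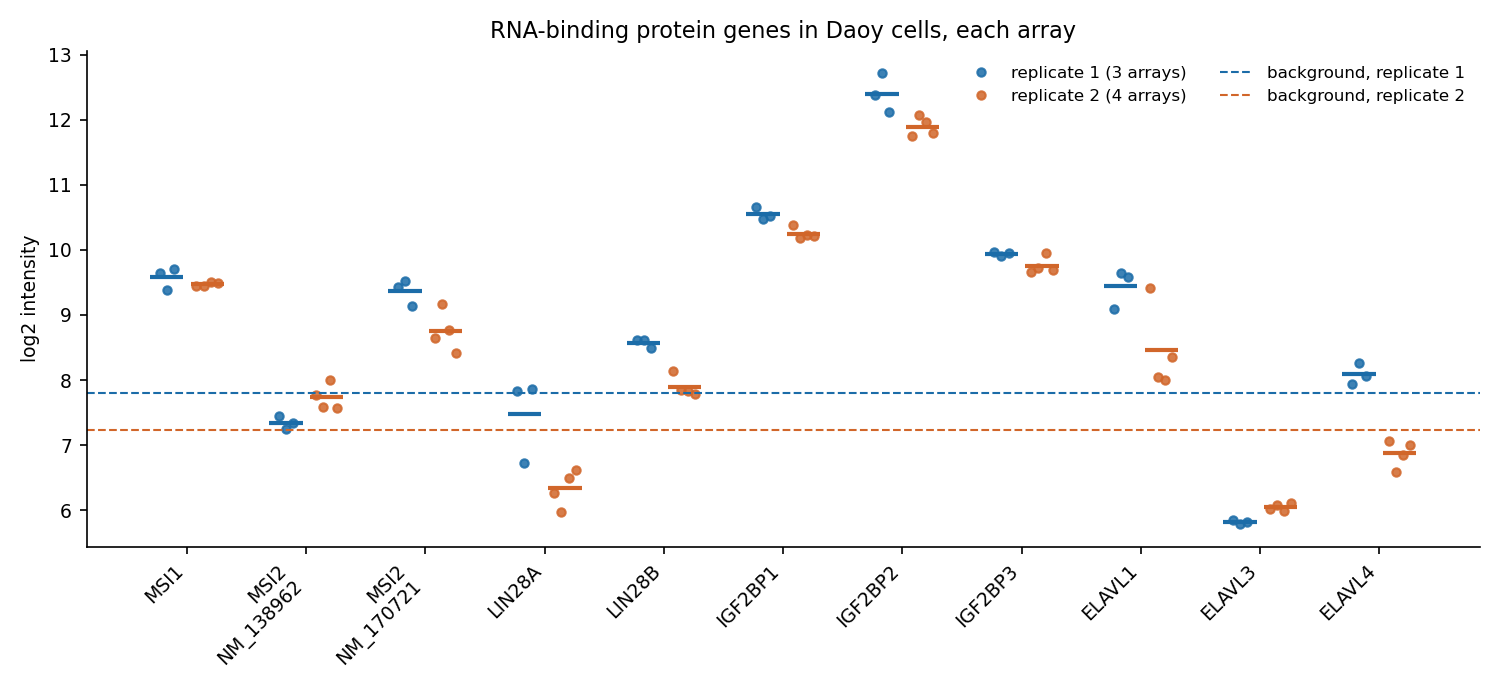
Log2 intensity (vertical axis) of each of the 11 rows on every array, as points, with the replicate mean as a bar and the background of each replicate as a dashed line. The IGF2BP and MSI1 rows lie well above both lines, ELAVL3 lies below both, and LIN28A and ELAVL4 are lower in replicate 2.

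MSI1, the founding Musashi gene of vertebrates, was above background on all 7 arrays, and no difference between the replicates was called. Its single row (NM_002442) read 9.64, 9.38 and 9.71 on arrays 1, 2 and 4 of replicate 1, and 9.44, 9.44, 9.51 and 9.48 on arrays 1 to 4 of replicate 2. The replicates overlapped, since array 2 of replicate 1 was the lowest of all 7. The level was 9.52 ± 0.08 (SD, n = 2 biological replicates), and the difference, replicate 2 minus replicate 1, was -0.11 with a 95% interval of -0.33 to 0.12 (limma, adjusted p = 0.398). The interval leaves room for a change of either sign, and leaving out 1 array moved the difference between -0.207, without array 2 of replicate 1, and -0.042, without array 4 of replicate 1.

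MSI2, the paralogue that is also known as a regulator of blood stem cells, had a gene mean of 8.30 ± 0.08 (SD, n = 2) that hid opposite differences of its rows. The row NM_138962 read 7.44, 7.24 and 7.35 in replicate 1 and 7.77, 7.58, 8.003 and 7.57 in replicate 2. All 4 arrays of replicate 2 were higher than those of replicate 1, and the row was called (limma over all rows, adjusted p = 0.0276), where 48.8% of all rows were called, 24.6% higher and 24.2% lower. Its mean of 7.34 in replicate 1 was below the background there, and its mean of 7.73 in replicate 2, though above the background of that replicate, was itself under the replicate 1 background, so no size is given. The row NM_170721 read 9.43, 9.53 and 9.14 in replicate 1 and 8.64, 9.17, 8.77 and 8.41 in replicate 2. It was lower in replicate 2 by 0.62 on the log2 scale (difference -0.62 ± 0.18, SE, adjusted p = 0.0172), or 1.53-fold, and array 2 of replicate 2 reached above the lowest array of replicate 1. The calls are fragile: that of NM_138962 ended without any 1 of 4 arrays (replicate 1 arrays 2 and 4, replicate 2 arrays 1 and 3, adjusted p = 0.0612 to 0.0814) and that of NM_170721 without array 1 or array 2 of replicate 1 (adjusted p = 0.0599 and 0.0597). As a gene, the difference of MSI2 was -0.11, with a 95% interval of -0.38 to 0.15 (adjusted p = 0.449); it ran from -0.171 without array 4 of replicate 1 to -0.031 without array 4 of replicate 2, and it was -0.62 (adjusted p = 0.0157) when the brighter row alone stood for the gene.

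Among the 1180 genes with 2 rows, 41 (3.47%) had both rows called in opposite directions, MSI2 among them. The array gives 1 value per transcript accession, and which exons its probes cover is not given in the sources used here.

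**Figure D2:**
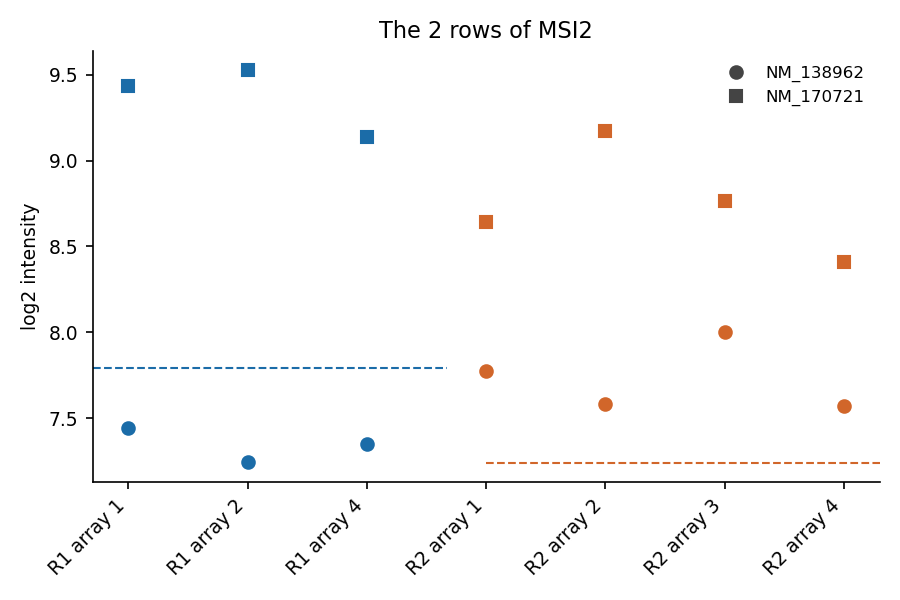
Log2 intensity (vertical axis) of the 2 MSI2 rows on each array of replicate 1 (R1, blue) and replicate 2 (R2, orange), with the background of each replicate dashed. NM_138962 (circles) lies below the background of replicate 1 on its 3 arrays and above that of replicate 2 on its 4, and NM_170721 (squares) lies above background on all 7.

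Of the LIN28 genes, LIN28B was above background and LIN28A was not. LIN28B, which is often switched on in tumours, read 8.61, 8.61 and 8.49 in replicate 1 and 8.14, 7.84, 7.84 and 7.78 in replicate 2. Every array of replicate 2 was lower than every array of replicate 1, and the difference was -0.67 ± 0.11 (SE, limma, adjusted p = 0.000816), or 1.59-fold. Against the background of each replicate, LIN28B stood 0.77 higher in replicate 1 and 0.66 higher in replicate 2. That background was itself lower in replicate 2 (7.79 and 7.24), and its part in the difference was not tested. LIN28A, the form of embryonic stem cells, read 7.83, 6.72 and 7.86 in replicate 1 and 6.27, 5.97, 6.50 and 6.63 in replicate 2. Arrays 1 and 4 of replicate 1 reached just above the background of 7.79, while the means of both replicates, 7.47 and 6.34, were below it. LIN28A also passed the test (adjusted p = 0.0075), and no size is given because both means were below background.

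The IGF2BP genes were all above background, with differences between the replicates of at most 0.51 on the log2 scale. IGF2BP1, which binds the MYC and beta-actin mRNAs, read 10.66, 10.48 and 10.52 in replicate 1 and 10.38, 10.18, 10.23 and 10.21 in replicate 2. The groups did not overlap, with a difference of -0.30 ± 0.09 (SE, limma, adjusted p = 0.0233), a call that ended without array 1 of replicate 1 or without array 2, 3 or 4 of replicate 2 (adjusted p = 0.0519 to 0.0848). IGF2BP2, the form that stays on in many adult tissues, read 12.37, 12.71 and 12.12 in replicate 1 and 11.76, 12.07, 11.96 and 11.79 in replicate 2. Its lowest array of replicate 1 stood just above the highest of replicate 2, and the difference was -0.51 ± 0.15 (SE, adjusted p = 0.0176), or 1.42-fold, a call that ended without array 2 of replicate 1 (adjusted p = 0.0531). IGF2BP3, an oncofetal form like IGF2BP1, read 9.96, 9.91 and 9.95 in replicate 1 and 9.66, 9.72, 9.95 and 9.69 in replicate 2. Array 3 of replicate 2 lay within the range of replicate 1, and the difference of -0.19, with a 95% interval of -0.41 to 0.03, did not pass (adjusted p = 0.139). When array number entered the fit as a block, which pairs the arrays and leaves array 3 of replicate 2 without weight, the difference of IGF2BP3 was -0.253 and passed (adjusted p = 0.0399). Leaving out that array with no block gave the same -0.253 and no call (adjusted p = 0.0582).

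Among the Hu genes, the ubiquitous ELAVL1 was above background in both replicates and the neuronal ELAVL3 in neither. ELAVL1 read 9.10, 9.64 and 9.58 in replicate 1 and 9.42, 8.05, 8.001 and 8.36 in replicate 2. Array 1 was the lowest array of replicate 1 and the highest of replicate 2, so the groups overlapped. The difference was -0.98 ± 0.32 (SE, limma, adjusted p = 0.0282), or 1.97-fold. In the paired fit, with array number as block and no weight on the unpaired array 3 of replicate 2, it was -0.827 and not called (adjusted p = 0.0787), the same difference as with that array left out and no block (adjusted p = 0.0631). It was not called when any 1 of 5 arrays was left out, arrays 2 and 4 of replicate 1 and arrays 2, 3 and 4 of replicate 2 (adjusted p = 0.0584 to 0.0873). Without array 1 of replicate 2 it was -1.30 (adjusted p = 0.000611).

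ELAVL4, known as HuD, read 7.94, 8.27 and 8.06 in replicate 1 and 7.07, 6.59, 6.85 and 7.01 in replicate 2. All arrays of replicate 1 lay above its background of 7.79 and all arrays of replicate 2 below its background of 7.24. Its mean was 8.09 in replicate 1, only 0.292 above the background there, and 6.88 in replicate 2. The difference was called (limma, adjusted p = 0.0001), with ELAVL4 lower in replicate 2. No size is given, because the mean of replicate 2 was below background and the background itself was lower there. The mean over both replicates, 7.48 ± 0.85 (SD, n = 2), was just under the overall background of 7.54. ELAVL3, known as HuC, read 5.85, 5.79 and 5.82 in replicate 1 and 6.02, 6.08, 5.98 and 6.10 in replicate 2. It was far below background throughout, so its call as higher in replicate 2 (adjusted p = 0.0404) is given with no size, and the call ended when any 1 array was left out (adjusted p = 0.0606 to 0.0957). ELAVL2, the remaining Hu gene and not a member, was at 5.93 ± 0.10 (SD, n = 2) and not called (adjusted p = 0.534).

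**Figure D3:**
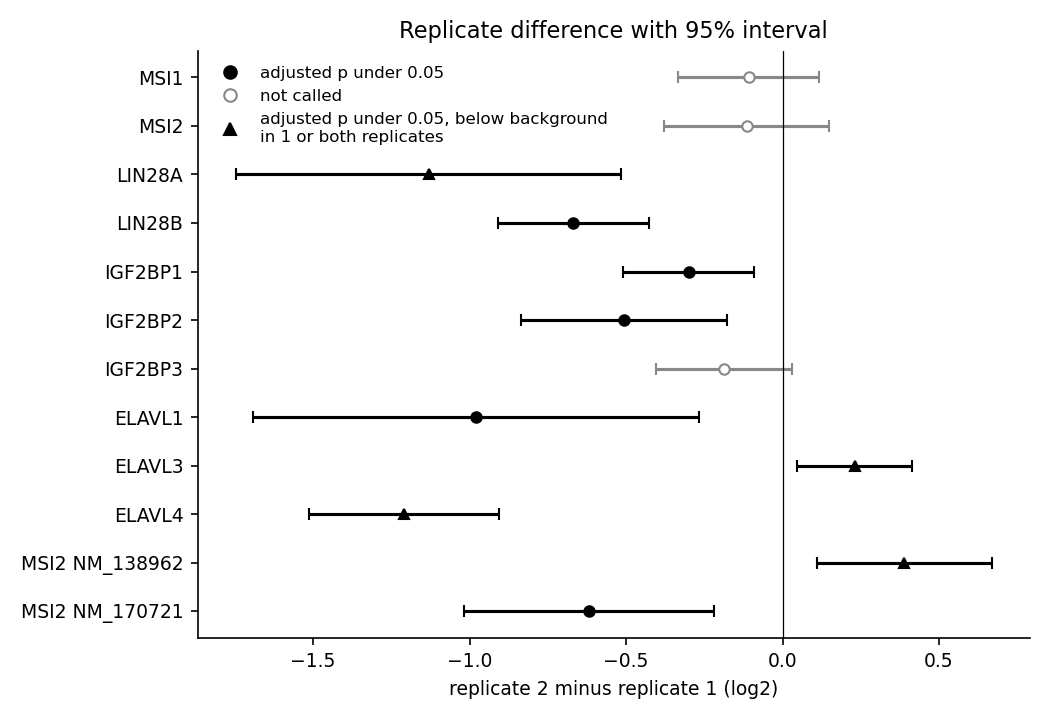
Replicate 2 minus replicate 1 on the log2 scale (horizontal axis) for the 10 genes and the 2 rows of MSI2, with 95% intervals from limma and filled points for an adjusted p under 0.05. Triangles mark items whose mean was below background in 1 or both replicates, for which the position gives a direction and not a size. The widest intervals belong to ELAVL1 and LIN28A, and the 2 MSI2 rows lie on opposite sides of 0.

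Genes that work with the members or are known as their targets were counted over lists. Each count is to be set beside the shares over all named genes: 60.6% above background, 25.5% called higher in replicate 2 and 24.2% lower. Of 8 reported Musashi targets, 6 were above background, 1 was higher in replicate 2, 1 lower and 6 were not called, with a median difference of 0.09. NUMB, the Notch antagonist whose translation Musashi represses in mouse neural progenitors, was at 11.39 in replicate 1 and 10.50 in replicate 2 (difference -0.89 ± 0.10, SE, limma, adjusted p = 0.000129). The cell cycle inhibitor CDKN1A was at 11.35 ± 0.08 (SD, n = 2) and not called (adjusted p = 0.464), and the neuronal DCX was below background, at 5.60 ± 0.01. Translational repressors and factors of the poly(A) tail had 11 of 14 measured genes above background, with 0 higher, 6 lower and 8 not called, and a median of -0.20. TENT2, the cytoplasmic poly(A) polymerase also called GLD2, was at 10.96 in replicate 1 and 8.33 in replicate 2 (-2.63 ± 0.15, SE, adjusted p = 4.23e-06). PABPC1, the poly(A)-binding protein that MSI1 is known to contact, was at 14.12 ± 0.14 (SD, n = 2) and the scaffold EIF4G1 at 13.92 ± 0.10, neither called (adjusted p = 0.309 and 0.216), while CPEB3 was below background at 5.92 ± 0.10.

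On the let-7 axis of LIN28, microRNA processing genes had 12 of 13 members above background, with 1 higher, 3 lower and 9 not called, and a median of -0.09. DROSHA, the nuclear nuclease that cuts primary microRNAs, was at 9.89 in replicate 1 and 7.61 in replicate 2 (-2.28 ± 0.16, SE, limma, adjusted p = 1.14e-05). XPO5, which exports precursors, was 0.56 lower on the log2 scale (difference -0.56 ± 0.10, SE, adjusted p = 0.00118), and TUT7, a uridyltransferase that acts on let-7 precursors with LIN28, was 0.70 ± 0.13 higher (SE, adjusted p = 0.00157). AGO2, the core of the silencing complex, was at 11.49 ± 0.11 (SD, n = 2) and not called (adjusted p = 0.323), and TRIM71, itself a let-7 target in stem cells, was below background at 5.71 ± 0.05. All 14 reported let-7 targets were above the overall background, though the replicate 1 mean of ARID3B was below the background of that replicate. Of the 14, 6 were called higher, 2 lower and 6 were not called, with a median of 0.14. Over all named genes, 60.6% were above background, 25.5% were called higher and 24.2% lower. Cytokine IL6 was at 7.89 in replicate 1 and 9.55 in replicate 2 (1.67 ± 0.12, SE, adjusted p = 1.13e-05), and HMGA2, a chromatin protein with many let-7 sites, was at 8.73 and 7.46 (-1.26 ± 0.15, SE, adjusted p = 0.000159). Both sizes rest on a mean close to background. The lowest replicate 1 array of IL6, 7.67, was below the background of 7.79 there. The lowest replicate 2 array of HMGA2, 7.13, was below the background of 7.24 there. HMGA1, a relative of HMGA2, was 0.42 ± 0.13 higher (SE, adjusted p = 0.0224), a call that ended without array 1 of replicate 1 or array 4 of replicate 2. IGF1R, the receptor of insulin-like growth factors, was at 12.30 ± 0.04 (SD, n = 2), and ARID3B at 7.70 ± 0.09 was close to background, neither called (adjusted p = 0.681 and 0.691).

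IGF2BP partners and client mRNAs had 9 of 10 genes above background, with 3 higher, 2 lower and 5 not called, and a median of 0.14. For this list and the next, the shares over all named genes were 60.6% above background, 25.5% called higher and 24.2% lower. IGF2, the mRNA that gave the family its name, was at 7.69 in replicate 1, under the background there, and at 8.62 in replicate 2 (adjusted p = 0.000102, limma). CD44, a client of IGF2BP proteins, was 0.89 ± 0.11 higher (SE, adjusted p = 0.000178). ACTB was at 15.04 ± 0.22 and the cold shock protein YBX1 at 14.85 ± 0.02 (SD, n = 2), neither called (adjusted p = 0.147 and 0.85), and the ubiquitin ligase subunit BTRC was below background at 7.41 ± 0.27, with a call as lower (adjusted p = 0.0348) that is given with no size and ended without any 1 of 5 arrays (array 2 or 4 of replicate 1, array 1, 2 or 4 of replicate 2). The list's count went from 5 to 3 without array 4 of replicate 1 or array 1 of replicate 2. Genes of the m6A mark, which IGF2BP proteins can read, had 14 of 15 above background, with 0 higher, 7 lower and 8 not called, and a median of -0.20, and the count went to 4 without array 4 of replicate 1. The reader YTHDC2 was at 9.52 and 8.28 (-1.24 ± 0.20, SE, adjusted p = 0.000845) and HNRNPA2B1 at 15.24 and 14.60 (-0.65 ± 0.11, SE, adjusted p = 0.00123). CBLL1, an adaptor of the m6A writer complex, was at 13.20 ± 0.28 (SD, n = 2) and lower in replicate 2 (-0.40 ± 0.13, SE, adjusted p = 0.0345), a call that ended without any 1 of 4 arrays (array 1 or 4 of replicate 1, array 2 or 3 of replicate 2). ZC3H13 went from 7.95 in replicate 1 to below background, 6.82, in replicate 2 (adjusted p = 0.000106).

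AU-rich element binding proteins and ligands of ELAVL1 had 11 of 12 genes above background, with 6 higher, 1 lower and 5 not called, and a median of 0.21. For this list and the next, the shares over all named genes were 60.6% above background, 25.5% called higher and 24.2% lower. The count of 7 called genes went to 4 without array 1 of replicate 1 or array 3 of replicate 2. ZFP36, a decay factor that binds the same elements as ELAVL1, was at 9.20 in replicate 1 and 10.25 in replicate 2 (1.05 ± 0.11, SE, limma, adjusted p = 7.96e-05), and the ELAVL1 ligand SET was 0.98 ± 0.15 higher (SE, adjusted p = 0.000591). The ligand ANP32A, at 13.71 ± 0.28 (SD, n = 2), was the 1 lower call (-0.40 ± 0.12, SE, adjusted p = 0.0189) and lost it without array 3 of replicate 2. ANP32B, at 13.59 ± 0.28, was not called (adjusted p = 0.0881), but was without array 4 of replicate 1 (adjusted p = 0.0025). TIAL1 at 7.34 ± 0.29 was below the overall background, and its call as higher (adjusted p = 0.0249), given with no size, ended without array 1 or array 4 of replicate 1. Other neural RNA-binding proteins had 11 of 22 above background, with 6 higher, 5 lower and 11 not called, and a median of -0.03. NOVA2, a splicing factor of neurons, was at 8.06 and 9.55 (1.495 ± 0.14, SE, adjusted p = 4.16e-05) and KHDRBS3 at 9.64 and 8.62 (-1.03 ± 0.16, SE, adjusted p = 0.00072). The NOVA2 size rests on a replicate 1 mean close to background. Its lowest replicate 1 array, 7.71, was below the background of 7.79 there. The fragile X relative FXR1 was 0.37 ± 0.11 higher (SE, adjusted p = 0.0169), a call that ended when its brightest row stood for the gene (adjusted p = 0.161). KHDRBS1 was lower (-0.30 ± 0.09, SE, adjusted p = 0.0243), a call that ended without array 1 of replicate 1 or without array 3 or 4 of replicate 2. The neuronal CELF4 was below background, at 5.67 ± 0.04 (SD, n = 2).

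**Figure D4:**
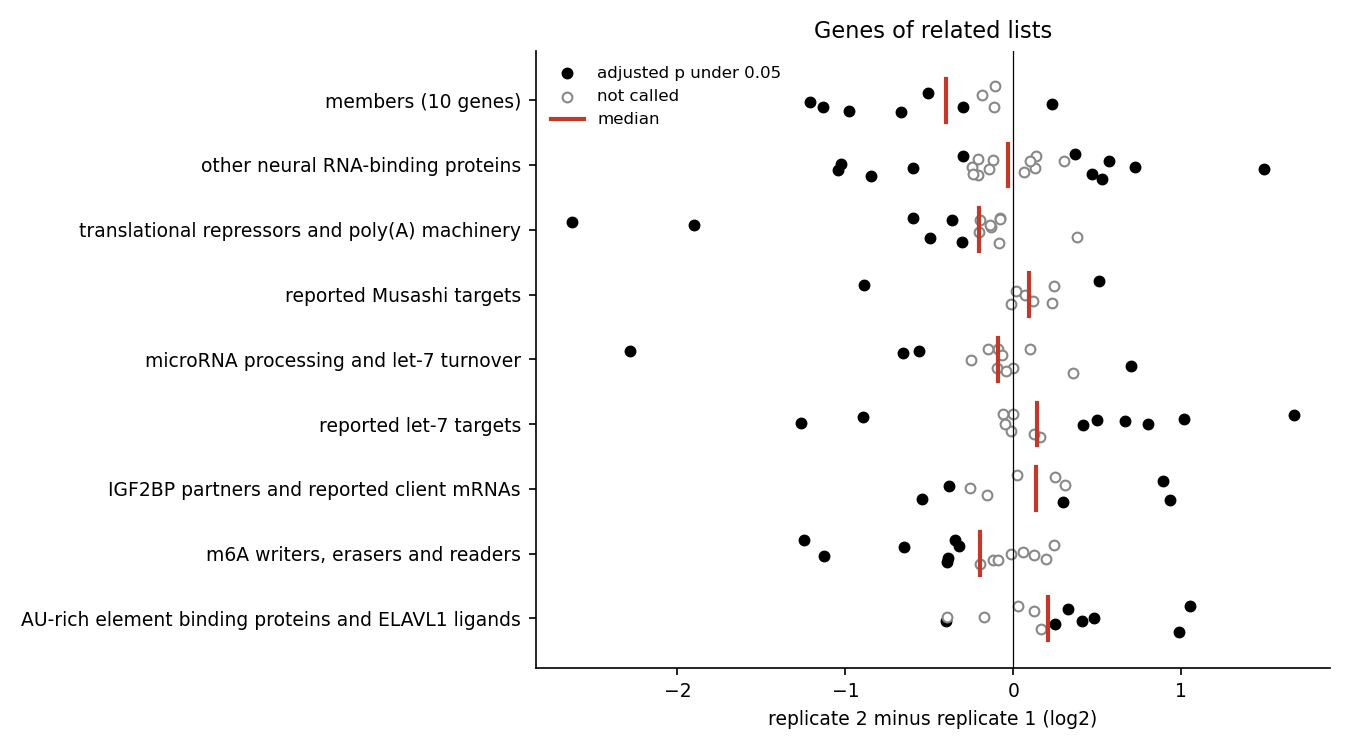
Replicate 2 minus replicate 1 on the log2 scale (horizontal axis) for each measured gene of the member set and 8 related lists, filled where the adjusted p was under 0.05, with the list median as a red bar. List medians run from -0.40 in the member set to 0.21 in the AU-rich element list, and the lowest points are TENT2 and DROSHA.

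The array profiles of the members above background were set against 154 other genes of the lists, by the root mean square distance between profiles centred on their own mean over the 7 arrays. The genes nearest to MSI1 were the microprocessor subunit DGCR8, at a distance of 0.061, and the intermediate filament VIM, at 0.073, where the median gene was at 0.244. For IGF2BP1 they were KHDRBS1 (0.049) and CNOT7 (0.051), for IGF2BP2 CPEB1 (0.077) and MAP2 (0.113), for IGF2BP3 CD14 (0.06) and NEFM (0.065), for LIN28B XRN2 (0.1) and XPO5 (0.117), and for MSI2 CD14 (0.097) and CCND2 (0.104). CD14 and NEFM were below background in both replicates, so nothing is read from their nearness. MAP2 was barely above background, with means of 7.84 and 7.26 against 7.79 in replicate 1 and 7.24 in replicate 2. Its lowest array in each replicate, 7.705 and 7.1, was below background, so its nearness is not read either. The MSI2 profile was the mean of its 2 rows, which moved in opposite directions, and so is that of neither row. For ELAVL1 the nearest genes were ELAVL4 at 0.379 and ARID3A at 0.399, where the median gene was at 0.678. ELAVL4 was below background in replicate 2. The 7 points share 2 biological replicates and slides, so such a distance mostly states a like difference between the replicates. For each member the 2 genes with the smallest distances were picked. That they lay nearer than the median gene was thus fixed by the choice, and nothing is concluded from it.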

How the data were processed

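The authors deposited log2 intensities of 24000 RefSeq transcripts on 7 arrays. The submitters' processing notes name RMA and limma without versions, and the base of the logarithm was taken as 2 by the convention of RMA. The sorted columns of the deposited log2 values differed by at most 0.002, so they were quantile normalized. The genome build behind the rows is not given in the sources used here. Rows were named by accession, without its version, through a RefSeq table of GRCh38.p14: 19125 rows matched 1 symbol and 4875 none. Rows of a gene were averaged. Levels are the mean of 2 replicate means with the SD over them (n = 2). The replicates were compared with limma 3.58.1 (lmFit and eBayes, all 7 arrays, Benjamini-Hochberg over all rows or all genes), which was tested on simulated data. The members, the lists and the background rule were chosen with earlier results of these data known. Named were all members and, of each list, the 2 highest and the lowest genes by level and the 2 largest called differences above background; ELAVL2 was named after its values were seen, and some genes the rule names are not reported here. Neighbours by array profile were the 2 nearest genes of the lists. Deviations of same-numbered arrays from their replicate means correlated at 0.211, 0.35 and 0.399 across rows for arrays 1, 2 and 4, though array 4 of replicate 1 and array 3 of replicate 2 also reached 0.203. The array number was taken to pair the arrays, from these data and not from the labels, and a fit with it as a block was added, in which array 3 of replicate 2 has no partner and no weight. Alternatives were that block, each array left out, a trended robust prior, dim rows removed, the brightest row per gene and other backgrounds. The number of arrays limits the precision.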

Additional observations from a re-analysis of the deposited data

Results flagged for a closer look

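LIN28B read 8.14 on array 1 of replicate 2, apart from the 7.78 to 7.84 of the other 3 arrays. The gap was 0.834 of the range of the 4 arrays, above the 95% critical value of Dixon's test. Chance gives such a gap in about 5% of groups, and 12 groups were looked at. Without that array LIN28B was lower in replicate 2 by 0.75 on the log2 scale (difference -0.748, limma, adjusted p = 0.000504).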

How the results depend on the processing

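With the array number as a replicate block, 9392 of 17217 genes and 12919 of 24000 rows were called, against 8568 and 11701 without it, and 7 members were called in both fits. The block also takes the weight from array 3 of replicate 2, which has no partner. Against all 7 arrays without a block, ELAVL1 was no longer called, IGF2BP3 was, and no other member changed. Against the fit without that array, which called 7714 genes, 10455 rows and 4 members, the block added IGF2BP1, IGF2BP3 and ELAVL3. When each array was left out in turn, 7331 to 8130 genes and 9980 to 11084 rows were called, 4 to 6 members were called, 4 to 6 of them lower and 0 higher in replicate 2, and 7 members were above background in every case. Removing rows at or below background from the row fit left 7719 called rows. Removing genes at or below background from the gene fit left 5898 called genes and 4 called members, 0 of them higher, because LIN28A, ELAVL3 and ELAVL4 were no longer tested. With background set at percentile 99 of the olfactory receptors, 8.42, 5 members stayed above it, without MSI2 and LIN28B. LIN28A, LIN28B and ELAVL4 were called in every fit that tested them, and no member or MSI2 row turned its direction. Of the other named genes, 7 that were not called changed sign when 1 array was left out. Their differences ranged from -0.095 to 0.018 for ENO2, -0.027 to 0.066 for YBX1, -0.024 to 0.332 for ARID3B, -0.007 to 0.215 for CDKN1A, -0.08 to 0.049 for DCX, -0.1 to 0.011 for IGF1R and -0.17 to 0.098 for VIM. The cause of these changes was not tested. The table holds no single-probe values, so probe disagreement and the background of each array were not examined, and a value at background does not show that a transcript is missing.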
